A study of Mus musculus with 9 samples.

Results

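The mitochondrial ribosomal protein genes are the nuclear genes for the proteins of the ribosome inside mitochondria. They were taken by name and gene type, as protein-coding mouse genes whose symbol is Mrpl or Mrps followed by a number, and 77 of the 37816 genes in the counts met this rule. One further gene that the annotation names this way, Mrpl53, was not analysed here, and 4 pseudogenes with such names were left out. The large subunit accounted for 50 of the genes and the small subunit for 26. Mrps36, whose product is known as a subunit of the 2-oxoglutarate dehydrogenase complex, was kept apart, and Mrps18a and Mrps30 were placed in the large subunit, where their proteins sit.

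RNA of the cerebellum of 9 C57BL/6 mice was sequenced, 1 library per mouse and 3 mice per group. All 9 mice, controls included, are YAC transgenics: an artificial yeast chromosome in their genome brings in human ATXN3, the gene behind spinocerebellar ataxia type 3. Its CAG tract holds 15 repeats in the control group, 15Q, and 84 repeats in both others, 84Q and 84Q+IGF-1. By the study's methods the 15Q mice were donated by a laboratory, while the 84Q mice came from The Jackson Laboratory. Repeat length and mouse line therefore cannot be told apart in the comparisons with 15Q. The 84Q+IGF-1 mice received 50 mg/kg IGF-1 intraperitoneally each week from month 9, and all tissue was taken at month 18. The labels call the other mice untreated, while the study's methods describe injections of PBS.

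Mitochondrial ribosomes translate the small set of respiratory chain subunits encoded by mitochondrial DNA. Their RNA comes from mitochondrial DNA and all of their proteins from nuclear genes, so a working particle needs both genomes. Part of the proteins have counterparts in bacterial ribosomes, and the rest were added in mitochondria. Inherited defects of several of these genes cause combined deficiencies of oxidative phosphorylation, often with disease of the brain or heart.

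Library totals ran from 17482654 to 58269196 counts. The lowest count of any of the 77 genes in any library was 51, that of Mrps18c in 84Q mouse 2, so all 77 passed the filter on low counts and were tested. Markers of Purkinje cells (summed 6044 to 6780 CPM, read counts scaled by the TMM-corrected library total) and of granule cells (4118 to 4707 CPM) were present in every library, as the tissue label gives. Summed markers of intestine, skeletal muscle, liver and epidermis separated the 15Q libraries from the rest. The 10 intestine markers summed to 22.9 to 38.6 CPM in the 15Q mice and to 1.14 to 2.55 CPM in the 6 mice with the long repeat. In these 6 mice Fabp2, Apoa4, Reg3b and Reg3g were at 0. Reg3b was also at 0 in 15Q mice 1 and 3, and Reg3g reached at most 0.12 CPM in 15Q. The 7 skeletal muscle markers summed to 12.8 to 19.8 CPM and to 2.24 to 3.58 CPM likewise, and all 7 were called lower (the thresholds are given below) in both groups with the long repeat. Liver markers summed to 15.9 to 30.3 against 2.70 to 4.39 CPM and epidermis markers to 15.04 to 26.3 against 7.07 to 8.37 CPM. Among them Serpina1a of the liver list and Krt1 of the epidermis list overlapped. Blood markers overlapped too, at 47.3, 210 and 32.2 CPM in 15Q against 22.8 to 80.9 CPM in the other mice. Choroid plexus markers were high in 15Q mice 1 and 3 and in 84Q mouse 2 (524, 516 and 1072 CPM) against 28.7 to 69.7 CPM in the other 6 libraries. The part of these tissues in the results given here was not tested. In whole tissue, fewer cells of a type and less RNA per cell cannot be told apart.

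The promoters of these genes held more of the motifs of 3 transcription factors known for controlling housekeeping and mitochondrial genes than promoters did in general. Windows of equal length around a transcript start (RefSeq, GRCm38.p6) were at hand for 68 of the 77 genes, in 74 windows. The ETS motif CCGGAAG, searched on both strands, lay in 33.8% of these windows and in 12.97% of 18267 windows of all protein-coding genes. The YY1 motif AAGATGGC lay in 16.2% against 3.32%. The full palindromic NRF1 motif lay in 4.05% (only 3 windows) against 1.51%, and its core TGCGCA in 29.7% against 10.7%. The core is not part of the full motif's letters but can overlap it in a longer run, and all motifs were searched on both strands. Median GC content of the windows was 58.5% and 58.3%, so base composition was close in both sets. A match is only these letters in the window. The 120 bases before the start are shown for Mrpl34 and Mrps18a, which carry results below, for Mrps22, a disease gene, and for Mrpl22, in which the NRF1 core lies beside the ETS motif and which was chosen after its letters were seen. Capitals mark the ETS motif, and sequences run 5′ to 3′ on the gene's strand (RefSeq, GRCm38.p6).
Mrpl34, chr8:71464806-71464925, plus strand: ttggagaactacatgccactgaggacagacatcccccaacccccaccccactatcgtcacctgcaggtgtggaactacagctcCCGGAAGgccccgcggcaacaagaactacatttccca
Mrps18a, chr17:46110884-46111003, plus strand: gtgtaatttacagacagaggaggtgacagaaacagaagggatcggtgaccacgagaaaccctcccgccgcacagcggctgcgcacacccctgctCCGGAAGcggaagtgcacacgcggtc
Mrps22, chr9:98601680-98601799, minus strand: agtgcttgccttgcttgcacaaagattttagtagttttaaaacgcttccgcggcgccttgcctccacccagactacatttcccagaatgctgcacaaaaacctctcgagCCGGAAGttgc
Mrpl22, chr11:58171544-58171663, plus strand: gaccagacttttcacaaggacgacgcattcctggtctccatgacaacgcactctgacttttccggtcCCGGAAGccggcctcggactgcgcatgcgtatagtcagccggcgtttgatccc
In all 4 stretches the motif reads CCGGAAG on the gene's own strand. The window of Mrps18a also holds the YY1 motif and the NRF1 core. Mrpl40, Mrpl28 and Mrpl12 had no ETS, YY1 or full NRF1 motif in their windows.

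The first comparison, 84Q against 15Q, sets transgenic mice with the long repeat against those with the short one. In it most of the 77 genes lay slightly higher in the 84Q mice, and 1 of them passed the thresholds. The 77 genes summed to 1474, 1480 and 1474 CPM in the 15Q mice and to 1566, 1529 and 1692 CPM in the 84Q mice. The groups did not overlap, and the 15Q mice lay close together. The mean was 1476 ± 3.32 CPM (SD, n = 3) in 15Q and 1596 ± 85.5 CPM (SD, n = 3) in 84Q, 8.11% above 15Q. The large subunit alone was 8.57% above and the small 7.17%. Without 84Q mouse 3 these became 4.85% for the 77 genes, 5.52% for the large subunit and 3.57% for the small.

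**Figure D1:**
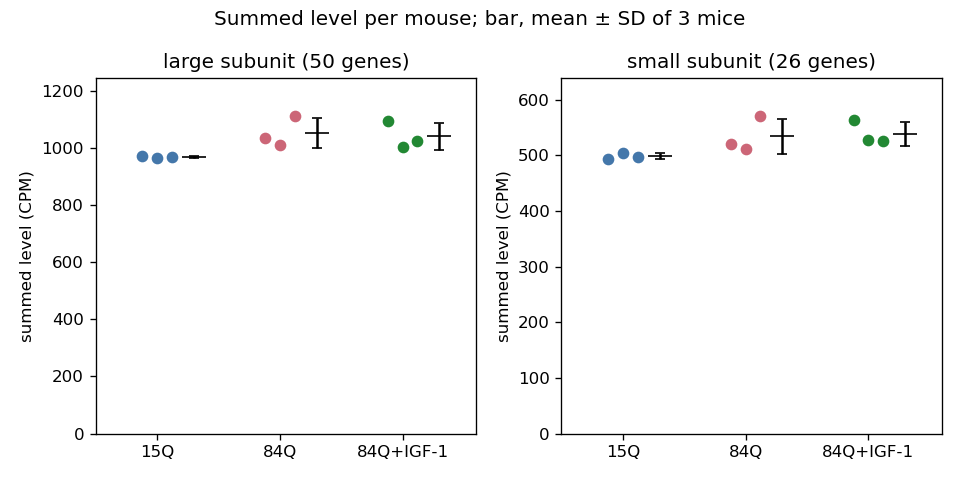
Summed level in CPM of the 50 large-subunit genes and the 26 small-subunit genes in each mouse (points) by group, with mean and SD of 3 mice (bars) and an axis that starts at 0. The 15Q mice lie within 6 CPM of each other in the large subunit, below all 6 other mice in both panels, and 84Q mouse 3 and 84Q+IGF-1 mouse 1 are the highest in both.

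To be called, a gene needed a fold of 1.5 or more together with an adjusted p below 0.1 (quasi-likelihood F test of edgeR, p-values adjusted after Benjamini and Hochberg over the 19353 genes that were tested). In 84Q against 15Q 2.14% of all genes were called (0.238% as higher and 1.9% as lower), and 1 of the 77 was called, as higher. Without the fold threshold, 2 of the 77 passed the adjusted p, against 4.8% of all genes (1.54% as higher). At an unadjusted p under 0.05, 15 of the 77 were higher and 0 lower, against 9.04% and 10.4% of all genes. The 15 became 5 without 15Q mouse 3 (5.77% of all genes in that fit), 8 without 84Q mouse 3 (5.35%) and 9 without 15Q mouse 2 (6.01%), so that without 15Q mouse 3 the members' share was near that of all genes. The log2 fold change was above 0 for 67 of the 77, against 49.7% of all genes. For 23 of the 77 every 84Q mouse lay above every 15Q mouse, against 11.9% of all genes, and for 0 every 84Q mouse lay below, against 13.5%. The median log2 fold change was 0.14 in these genes, −0.00 in all genes and 0.01 in protein-coding genes. Single log2 fold changes lay between −0.21 and 0.59, beside a median standard error of 0.10.

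Mrpl34 was the gene called. It codes for bL34m, a short basic protein of the large subunit (ENSMUSG00000034880.7, GRCm38 chromosome 8, 71464959 to 71465747, plus strand), and no exon of another gene overlaps its exons. Its level was 8.50, 6.27 and 7.41 CPM in the 15Q mice, 9.99, 10.3 and 13.1 CPM in the 84Q mice and 10.97, 9.14 and 8.70 CPM in the 84Q+IGF-1 mice. Every mouse of both 84Q groups lay above every 15Q mouse, and 84Q mouse 3 was the highest. In 84Q it rose by 0.59 on the log2 scale, with a standard error of 0.15 and an adjusted p of 0.0693, which puts it at the edge of the fold threshold (log2 of 0.585). The call was lost without 15Q mouse 2 (log2 fold change 0.49), 15Q mouse 3 (0.60) or 84Q mouse 3 (0.46), and also with Xist as a covariate (0.50), with the length and GC trend removed (0.53), under a replicate block (0.59) and at an adjusted p under 0.05. Between 229 and 434 reads per library stood behind these values.

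Mrpl40, also of the large subunit whose human counterpart lies in the region deleted in velocardiofacial syndrome, passed the adjusted p without reaching the fold. Its 15Q mice had 13.5, 13.9 and 14.3 CPM, its 84Q mice 17.7, 15.9 and 17.7 CPM and its 84Q+IGF-1 mice 17.5, 15.6 and 16.2 CPM. The 15Q mice were all below the others. In 84Q it lay 0.30 higher on the log2 scale, with a standard error of 0.08 and an adjusted p of 0.0949. This p was over 0.1 without any 1 of the 15Q mice, without 84Q mouse 1 or 3 or 84Q+IGF-1 mouse 3 (up to 0.258), and with 2 groups only, no filter, Xist as a covariate, a replicate block or the length and GC trend removed (up to 0.241).

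The next smallest p-values belonged to 4 genes whose products sit in the large subunit, and 0 of the 4 passed the adjusted p in edgeR. In DESeq2 Mrpl4 (adjusted p = 0.0564) and Mrpl51 (adjusted p = 0.0991) did. In edgeR Mrpl4 did with no filter on low counts (adjusted p = 0.0034), without 15Q mouse 1 (0.0726) and without 84Q mouse 1 (0.0626), while its adjusted p was 0.379 without 84Q mouse 3. Mrpl4 (uL4m, at the wall of the exit tunnel) had 34.4, 30.1 and 27.9 CPM in 15Q and 33.5, 39.2 and 44.4 CPM in 84Q, so that the groups overlapped, and it lay 0.34 higher on the log2 scale (adjusted p = 0.129). Mrpl51 had 29.3, 31.5 and 32.2 CPM in 15Q and 35.3, 35.2 and 36.5 CPM in 84Q (log2 fold change 0.20, adjusted p = 0.135). Its exons hold a microRNA gene on the same strand, Mir3098.

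Mrpl28 had 18.4, 19.8 and 20.5 CPM in 15Q and 22.3, 22.8 and 23.9 CPM in 84Q (log2 fold change 0.23, adjusted p = 0.136). Mrps18a had 18.9, 18.3 and 17.2 CPM in 15Q and 22.6, 21.03 and 20.6 CPM in 84Q (log2 fold change 0.24, adjusted p = 0.156). In Mrpl51, Mrpl28 and Mrps18a every 84Q mouse was above every 15Q mouse.

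**Figure D2:**
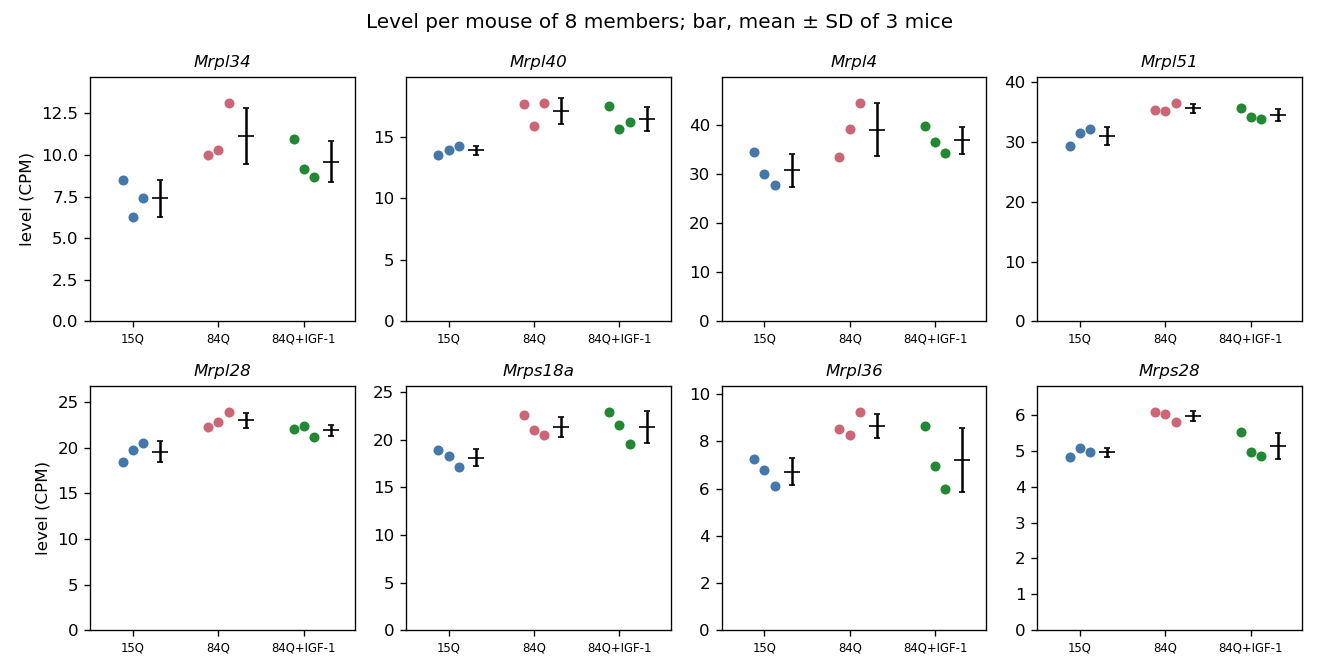
Level in CPM of 8 of the genes in each mouse (points) by group, with mean and SD of 3 mice (bars) and axes that start at 0. Except in Mrpl4 the 84Q mice all lie above the 15Q mice, and in Mrpl36 and Mrps28 the 84Q+IGF-1 mice span or approach the 15Q level.

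By subunit, the median log2 fold change was 0.14 over the 50 large-subunit genes, with 42 above 0, and 0.13 over the 26 small-subunit genes, with 24 above 0. By origin, it was 0.15 over the 48 genes with a bacterial counterpart and 0.12 over the 29 without one. The 45 genes whose exons overlap no other gene had a median of 0.13 and the 32 with an overlap 0.14. No test of a difference between these sets was run.

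The stalk of the large subunit, which recruits the translation factors, is formed at Mrpl10, Mrpl11 and Mrpl12. Their log2 fold changes in 84Q were 0.19 for Mrpl10 (adjusted p = 0.342), 0.05 for Mrpl11 (adjusted p = 0.85) and 0.14 for Mrpl12 (adjusted p = 0.365). Mrpl12, which also binds the mitochondrial RNA polymerase, had 24.2, 24.7 and 23.7 CPM in 15Q and 26.9, 26.4 and 26.4 CPM in 84Q, without overlap. Mrpl58, which releases stalled peptides as a peptidyl-tRNA hydrolase built into the large subunit, had 27.5, 25.5 and 23.2 CPM in 15Q and 27.6, 30.2 and 31.1 CPM in 84Q, or 0.22 more on the log2 scale (adjusted p = 0.198).

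Mrps18a, Mrps18b and Mrps18c code for relatives of bacterial S18, and of these Mrps18a had the largest difference with all mice. Without 84Q mouse 1 Mrps18b (0.27) lay above Mrps18a (0.20), and without 84Q mouse 3 Mrps18b lay at 0.02. Mrps18b and Mrps18c, the small-subunit members of this family, had log2 fold changes of 0.14 (standard error 0.14) and 0.04 (standard error 0.18), and both overlapped between groups.

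Of 13 genes in which inherited variants are known to cause deficiency of oxidative phosphorylation in people (Mrpl3, Mrpl12, Mrpl24, Mrpl44, Mrps2, Mrps7, Mrps14, Mrps16, Mrps22, Mrps23, Mrps25, Mrps28 and Mrps34), 12 had a log2 fold change above 0 in 84Q, with a median of 0.11, and 0 passed the adjusted p in edgeR (2 had an unadjusted p under 0.05). Mrps34, a small-subunit protein without a bacterial counterpart, had 11.6, 7.37 and 8.40 CPM in 15Q and 9.62, 12.3 and 14.6 CPM in 84Q. Its spread within groups was wide, and its log2 fold change of 0.42 had a standard error of 0.18 (adjusted p = 0.235). Without 15Q mouse 1 its log2 fold change was 0.62 and it was called (adjusted p = 0.0859). With no filter on low counts it passed the adjusted p (0.0342) at 0.42. The difference was 0.27 without 84Q mouse 3 (adjusted p = 0.577) and 0.29 with Xist as a covariate (adjusted p = 0.399). Its exons overlap Nme3 on the same strand and Mapk8ip3 on the other, so reads of these genes may be shared. Mrps28 had 4.83, 5.08 and 4.95 CPM in 15Q and 6.07, 6.02 and 5.81 CPM in 84Q (log2 fold change 0.27, adjusted p = 0.229). The gap between the groups in Mrps28 was larger than the range within either. Mrps7 lay at 0.18 (adjusted p = 0.27), and at 0.11 without 84Q mouse 3 and 0.077 with the length and GC trend removed. Mrps16 lay at 0.21 (adjusted p = 0.313), and at 0.11 without 84Q mouse 1.

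The log2 fold change was below 0 for the other 10. Mrpl19 had the lowest log2 fold change, −0.21 (adjusted p = 0.399), and was named after its value was seen. It had 19.4, 20.3 and 28.4 CPM in 15Q and 19.2, 19.3 and 20.7 CPM in 84Q, so that 15Q mouse 3 alone stood high, and without that mouse the difference was −0.01. Mrpl33, a short large-subunit protein, followed at −0.10 (adjusted p = 0.754), and lay at −0.22 without 15Q mouse 1 and −0.01 without 15Q mouse 2. Mrps2 lay at −0.01. Mrps30, just above 0 and so not among the 10, lay at 0.00.

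The second comparison sets the 84Q+IGF-1 mice against the same 15Q libraries, so it shares its controls with the first. Here 0 of the 77 genes were called in edgeR, against 2.25% of all genes (0.186% as higher and 2.06% as lower). Without the fold threshold 0 of the 77 passed the adjusted p, against 3.67% of all genes (1.04% as higher). At an unadjusted p under 0.05, 12 were higher and 0 lower, against 7.36% and 10.4% of all genes. DESeq2 also called 0, against 1.55% of all genes in that fit. The 12 became 1 without 84Q+IGF-1 mouse 1 (4.93% of all genes in that fit), 5 without 15Q mouse 3 (4.86%), 8 without 15Q mouse 2 (5.21%) or with Xist as a covariate (5.88%) and 7 under a replicate block (5.96%). The members' share was thus below that of all genes without 84Q+IGF-1 mouse 1. With no filter on low counts, Mrpl4 and Mrpl34 passed the adjusted p, against 6.25% of all genes in that fit. The 77 genes summed to 1668, 1538 and 1560 CPM, a mean of 1589 ± 69.6 CPM (SD, n = 3) that was 7.66% above 15Q (4.97% without 84Q+IGF-1 mouse 1). The median log2 fold change was 0.11, and 69 of the 77 were above 0, against 48.9% of all genes. For 23 of the 77 every 84Q+IGF-1 mouse lay above every 15Q mouse (11.8% of all genes), and for 0 every one lay below (12.9%).

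Mrpl34 again stood highest, 0.38 above 15Q on the log2 scale with a standard error of 0.15 (adjusted p = 0.213). Mrpl18, known for carrying 5S ribosomal RNA into mitochondria, had 11.9, 11.3 and 11.5 CPM in 15Q and 16.0, 13.4 and 12.8 CPM in 84Q+IGF-1 (log2 fold change 0.28, adjusted p = 0.175). In 84Q it had 14.2, 13.1 and 14.2 CPM (0.26, adjusted p = 0.188). All 6 mice with the long repeat lay above the 15Q mice in Mrpl18.

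Mrpl40 lay at 0.24 (adjusted p = 0.171), Mrpl58 at 0.25 (0.177), Mrps18a at 0.23 (0.179) and Mrpl38 at 0.19 (0.209), each a log2 fold change with its adjusted p in parentheses. Mrps12, the protein of the decoding site, had 13.6, 13.5 and 12.6 CPM in 15Q and 16.97, 16.8 and 13.8 CPM in 84Q+IGF-1 (log2 fold change 0.26, adjusted p = 0.247). Mrps16 of the small subunit had 7.57, 8.38 and 7.91 CPM in 15Q and 9.13, 9.52 and 9.55 CPM in 84Q+IGF-1 (log2 fold change 0.24, adjusted p = 0.271). Neither Mrps12 nor Mrps16 overlapped between the groups.

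The third comparison, 84Q+IGF-1 against 84Q, asks what the treatment changed. In edgeR 0 of the 77 genes were called and 0 of all genes (0%), and 0 of the 77 had an unadjusted p under 0.05, against 4.68% of all genes (1.83% as higher and 2.84% as lower). DESeq2 called 0 of the 77 too, against 0.0159% of all genes in that fit. The median log2 fold change was −0.00, with 38 of the 77 above 0 (48.7% of all genes), and the single values ran from −0.27 to 0.17 beside a median standard error of 0.10. The 38 became 19 without 84Q+IGF-1 mouse 1 (47.2% of all genes), 23 without 84Q mouse 2 (49.4%) and 54 without 84Q mouse 3 (50.8%), so that the count above 0 rested on single mice. The summed levels of 1566, 1529 and 1692 CPM in 84Q and 1668, 1538 and 1560 CPM in 84Q+IGF-1 overlapped.

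Mrps28 was the 1 gene in which every 84Q+IGF-1 mouse (5.53, 4.97 and 4.86 CPM) lay below every 84Q mouse, a pattern that 4.5% of all genes had. On the log2 scale it lay at −0.22, with a standard error of 0.12 (adjusted p = 0.969). In 0 of the 77 genes did every treated mouse lie above, against 3.98% of all genes. Mrpl36, a very short zinc-binding protein of the large subunit, had 8.51, 8.25 and 9.23 CPM in 84Q and 8.66, 6.96 and 5.99 CPM in 84Q+IGF-1 (log2 fold change −0.27, adjusted p = 0.969). Its 15Q mice had 7.24, 6.80 and 6.11 CPM, and its exons overlap Ndufs6 on the other strand.

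The other 4 genes with the smallest p had log2 fold changes of −0.27 for Mrps6, −0.21 for Mrpl34, 0.14 for Mrpl46 and 0.14 for Mrps35, each with an adjusted p of 0.969 in edgeR.

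**Figure D3:**
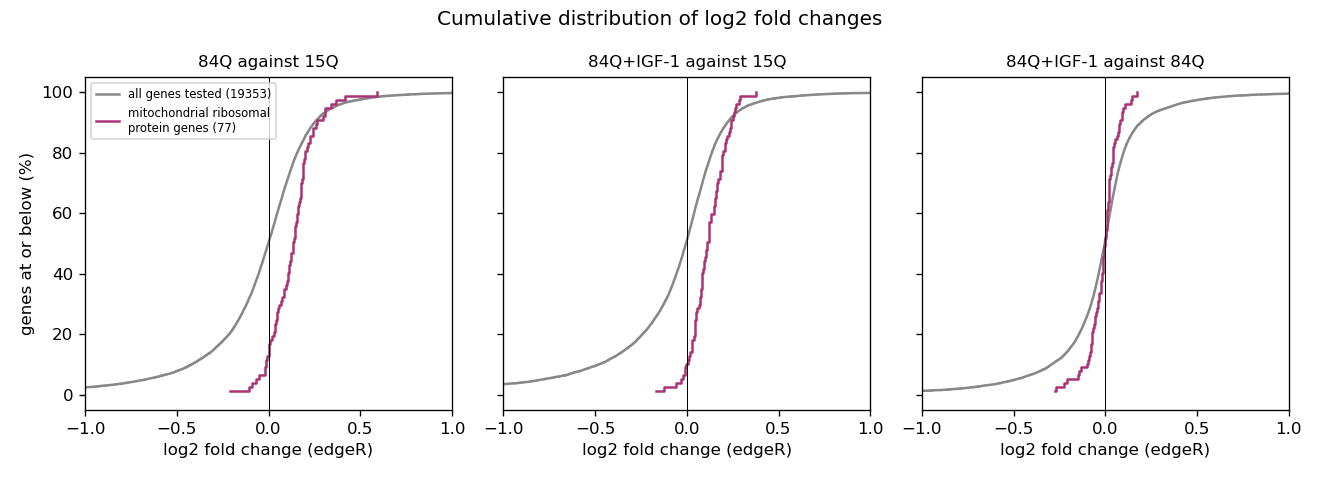
Percentage of genes (vertical axis) at or below a log2 fold change (horizontal axis, cut at −1 and 1) for the 77 mitochondrial ribosomal protein genes and all 19353 genes tested, in the 3 comparisons. The curve of the 77 genes is shifted to the right in both comparisons with 15Q, where 67 and 69 of them lie above 0 and the medians are 0.14 and 0.11, and it centres on 0 in 84Q+IGF-1 against 84Q.

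With both 84Q groups pooled against 15Q, a comparison added after the first results were seen, 3.51% of all genes (0.284% as higher and 3.23% as lower) and 0 of the 77 were called. At an unadjusted p under 0.05, 18 of the 77 were higher and 0 lower, against 10.2% and 12.4% of all genes. Without the fold threshold, 9.75% of all genes (3.64% as higher) and 6 of the 77, all higher, passed the adjusted p. The log2 fold change was above 0 for 69 of the 77, against 48.7% of all genes. The 6 were Mrpl34 (log2 fold change 0.48, adjusted p = 0.058), Mrpl40 (0.27, 0.0613), Mrps18a (0.24, 0.087), Mrpl4 (0.30, 0.092), Mrpl51 (0.18, 0.0966) and Mrpl18 (0.27, 0.0967). The 6 became 0 without 15Q mouse 2 (2.15% of all genes in that fit), without 15Q mouse 3 (1.78%) or with Xist as a covariate (4.33%), and 3 with the length and GC trend removed (6.97%). They became 1 without 84Q mouse 3 (6.26%), without 84Q+IGF-1 mouse 1 (6.82%) or under a replicate block (4.51%). At the unadjusted p, the 18 became 10 without 15Q mouse 3, against 6.32% of all genes. In 15 of the 77, all 6 mice of the 84Q groups lay above the 3 15Q mice, against 5.96% of all genes, and in 0 they all lay below, against 6.34%.

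The mice did not contribute evenly. 84Q mouse 3 held the highest CPM of 30 of the 77 genes and 84Q+IGF-1 mouse 1 that of 27, while 15Q mouse 1 held the lowest of 25, 15Q mouse 3 of 17, 15Q mouse 2 of 12 and 84Q mouse 2 of 11. The median deviation of the 77 genes from their mean over all mice, in log2 CPM, was −0.08, −0.08 and −0.08 in the 15Q mice. It was 0.02, −0.02 and 0.12 in the 84Q mice and 0.11, −0.02 and 0.02 in the 84Q+IGF-1 mice. Without 84Q mouse 3 the median for 84Q against 15Q was 0.08 (log2), and without 84Q+IGF-1 mouse 1 that in 84Q+IGF-1 against 15Q was 0.08. 84Q mouse 3 was also the library with the lowest total count.

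Transcript length and base composition moved with the same values. With all protein-coding genes tested split into quintiles of transcript length, their median difference between 84Q and 15Q went from 0.10 for the shortest through 0.07, 0.03 and −0.00 to −0.10 for the longest (log2). Over quintiles of GC content it went from −0.08 at the lowest to 0.10 at the highest. The 77 genes are short, with a median transcript of 1339 bases against 3166 for protein-coding genes tested, and 50 of them fall in the shortest quintile. There their median was 0.16 in 84Q and 0.12 in 84Q+IGF-1, against 0.10 and 0.08 for all genes of that quintile.

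In a fit that removed each library's trend over length and GC, an alternative added after the first results were seen, the median of the 77 was 0.10 in 84Q against 15Q and 0.08 in 84Q+IGF-1 against 15Q. In this fit 62 and 66 of the 77 were above 0, against 50.6% and 50.5% of all genes in it. An unadjusted p under 0.05 as higher was had by 9 and 10 of the 77, against 7.56% and 8.0% of all genes, and 0 were called, against 1.79% and 2.36%. Mrpl34 then had a log2 fold change of 0.53 in 84Q, Mrpl40 0.20, Mrpl51 0.22, Mrpl4 0.20, Mrpl28 0.11 and Mrpl12 0.03.

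**Figure D4:**
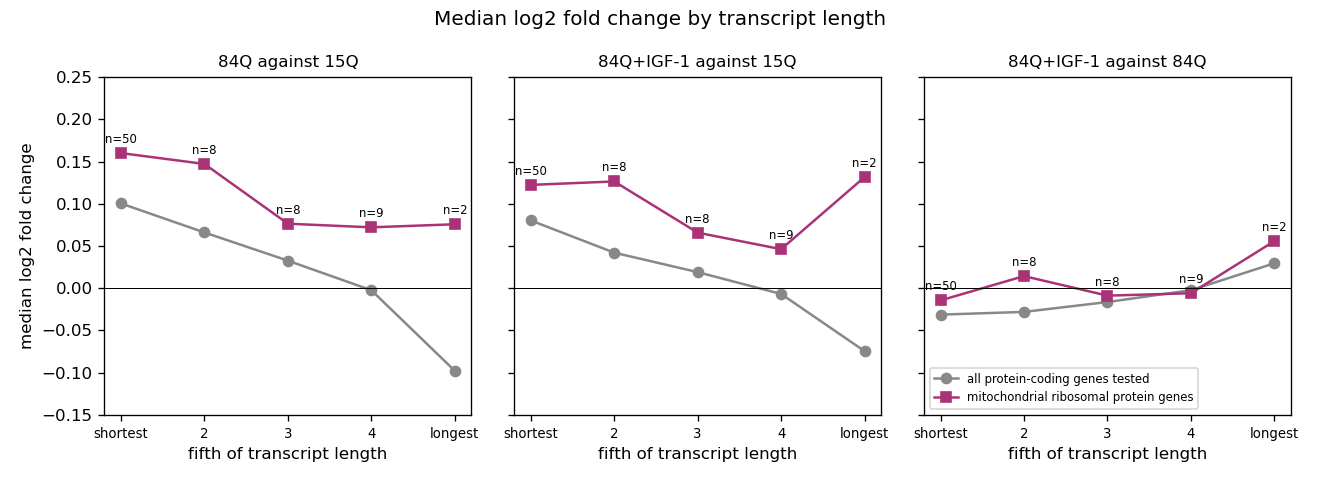
Median log2 fold change (vertical axis) of all protein-coding genes tested and of the mitochondrial ribosomal protein genes in quintiles of transcript length (horizontal axis, number of the latter given at each point), in the 3 comparisons. In both comparisons with 15Q the medians of all genes fall from the shortest to the longest quintile, and the 77 genes lie above them in each, the longest of which holds only 2.

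Values for other families of short genes, expressed at a higher level than these, were of the same sign. In 84Q against 15Q the 79 cytosolic ribosomal protein genes tested had a median log2 fold change of 0.19, with 76 above 0 and 9 past the adjusted p as higher. The 65 nuclear-encoded respiratory chain subunits tested had 0.23, with 61 above 0 and 19 past the adjusted p as higher. In 84Q+IGF-1 against 15Q these medians were 0.14 and 0.20. Summed, the 2 families lay 13.7% and 14.3% above 15Q in 84Q, beside 8.11% for the mitochondrial ribosomal proteins, and without 84Q mouse 3 they lay 9.00% and 11.003% above, beside 4.85%. The families were not tested against each other. Microglial markers also stood higher in 84Q, at 170 to 208 CPM against 142 to 167 CPM in 15Q and 152 to 165 CPM in 84Q+IGF-1, all 6 markers above 0 and 2 past the adjusted p in 84Q. Oligodendrocyte markers summed to 3003, 3718 and 3944 CPM in the 84Q+IGF-1 mice, below the 15Q mice (3983 to 4281 CPM) and lowest in 84Q+IGF-1 mouse 1, with 2 of 6 markers above 0 and 1 past the adjusted p as lower. In the 84Q mice they summed to 3931 to 4944 CPM. The part of these cell types in the result was not tested.

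The genes that work with the mitochondrial ribosome were examined as fixed lists. In the 3 comparisons 0 genes of these lists were called, against 2.14%, 2.25% and 0% of all genes. Of the 5 mitoribosome proteins with other names, all 5 had a log2 fold change above 0 in 84Q against 15Q (median 0.20, 0 past the adjusted p). Dap3, a GTP-binding protein of the small subunit, had 43.4, 41.5 and 41.9 CPM in 15Q and 48.1, 46.1 and 51.2 CPM in 84Q (0.20, adjusted p = 0.123). Its groups did not overlap.

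Of the 23 assembly factors, 19 were above 0 (median 0.08), and 1 passed the adjusted p without the fold of 1.5. This was Mpv17l2, an inner membrane protein needed to assemble the particle, with 12.3, 10.6 and 10.4 CPM in 15Q, 13.2, 17.2 and 15.5 CPM in 84Q and 15.8, 13.4 and 12.9 CPM in 84Q+IGF-1 (0.47 higher in 84Q on the log2 scale, adjusted p = 0.0773). The RNA helicase Ddx28 lay 0.32 higher (adjusted p = 0.169). No 84Q mouse overlapped the 15Q mice in Mpv17l2.

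The translation factors were centred on 0, with a median of 0.00 over 14 tested of 15 and 7 above 0. The 20 genes for charging mitochondrial transfer RNA had a median of 0.08, with 14 above 0. They ran from Mars2, the methionyl-tRNA synthetase, at −0.28 (adjusted p = 0.163) to Lars2, the leucyl-tRNA synthetase, at 0.43 (adjusted p = 0.458), the latter named after its value was seen. The 9 genes for replicating and transcribing mitochondrial DNA had a median of 0.04, with 8 above 0. Genes encoded by mitochondrial DNA were not analysed here.

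Levels per length, in TPM (counts divided by the summed exon length of each gene and scaled to the same total in every library), placed the 77 genes at a middle height. Their means over all 9 mice ran from 3.16 to 89.3 TPM with a median of 28.8 TPM, at the 68.0th percentile of all protein-coding genes. The cytosolic ribosomal protein genes had a median of 110 TPM. With the exons of the basic transcript set, a setting chosen after seeing the data, these medians were 37.9 and 165 TPM. Within a group the 77 genes varied from mouse to mouse about as much as other genes. Their median SD was 0.11 in log2 CPM, against 0.12 for protein-coding genes tested.

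Mrpl41 was the highest at 89.3 ± 6.34 TPM (SD, n = 9), followed by Mrps15 (70.6 ± 3.97), Mrpl10 (67.7 ± 6.19), Mrpl12 (66.9 ± 3.19) and Mrps21 (64.3 ± 6.73). The SDs of the last 4 overlapped. The lowest were Mrpl33 (3.16 ± 0.42 TPM), Mrpl13 (7.51 ± 0.62), Mrps30 (7.80 ± 0.43), Mrps35 (10.02 ± 0.81) and Mrpl17 (10.04 ± 0.56). The order rests on the exon lengths, at both ends. With the basic transcript set Mrpl33 stood at 38.1 TPM and Mrpl13 at 38.4 TPM, in the middle of the family, while Mrpl41, at 80.4 TPM, was sixth. Between groups Mrpl41 had 17.6, 18.8 and 18.6 CPM in 15Q and 19.8, 20.8 and 21.01 CPM in 84Q, which is 0.16 higher on the log2 scale (adjusted p = 0.347), while 84Q+IGF-1 lay 0.18 higher (adjusted p = 0.314).

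**Figure D5:**
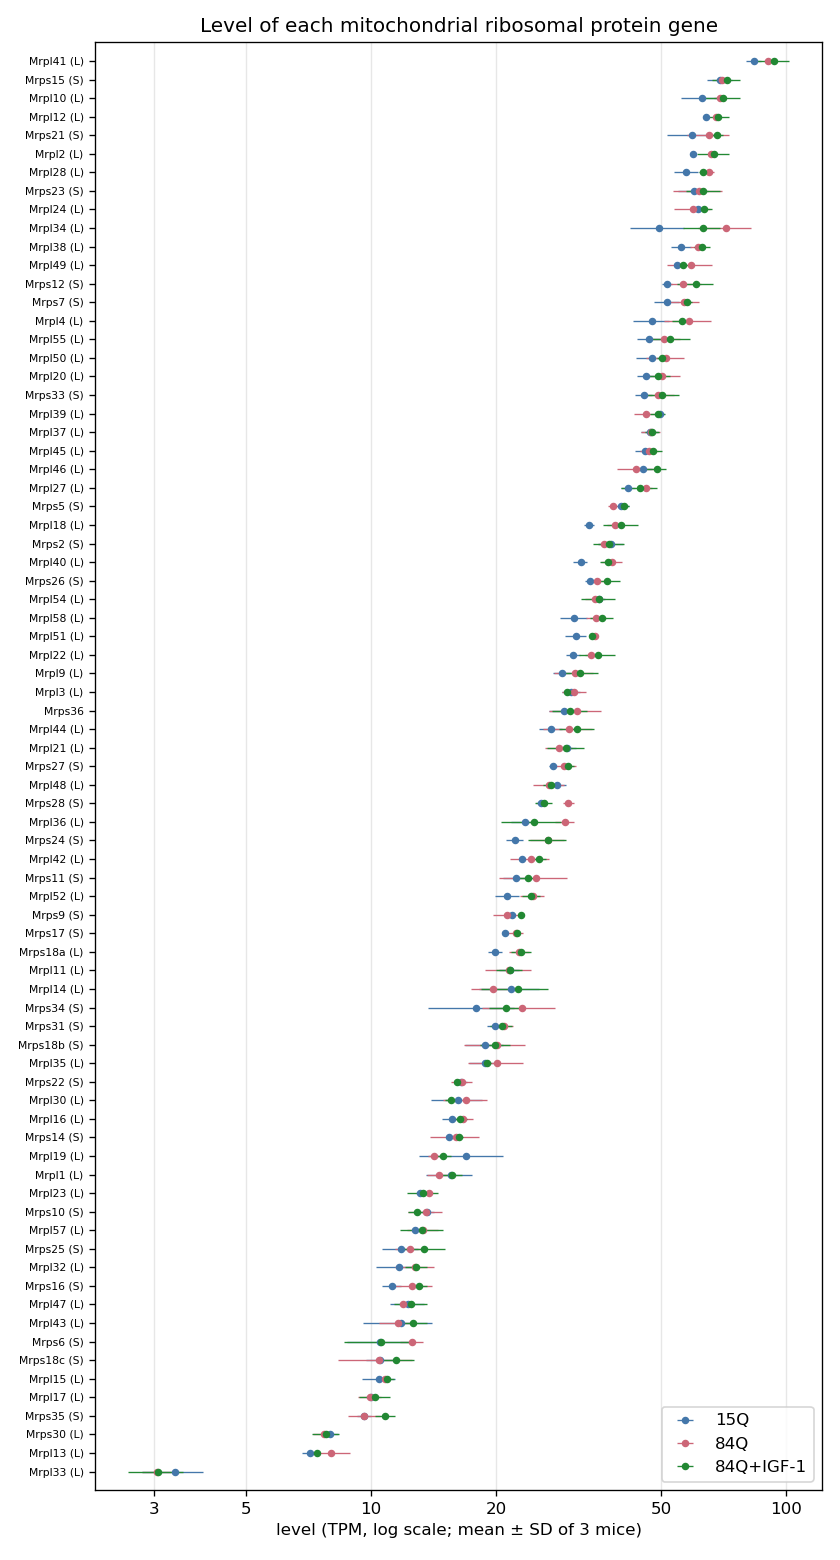
Level in TPM (horizontal axis, log scale) of each of the 77 genes, ordered by its mean, as mean and SD of 3 mice, 1 colour per group. L marks the large and S the small subunit. Most genes differ far more from each other, from Mrpl33 at 3.16 to Mrpl41 at 89.3 TPM, than between groups.

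Small-subunit genes summed to 0.46 ± 0.01 of the large-subunit genes in the 15Q mice, to 0.45 ± 0.01 in the 84Q mice and to 0.46 ± 0.01 after IGF-1 (ratio of summed TPM, SD, n = 3), and these values overlapped. From CPM the ratio was 0.504, 0.507 and 0.514 in the 84Q mice and 0.515, 0.527 and 0.514 in those given IGF-1, all of the latter above all of the former, with 15Q between 0.508 and 0.522. Large-subunit genes had a median of 30.4 TPM and small-subunit genes 22.9 TPM, but 38.0 and 35.8 TPM with the exons of the basic transcript set, so that the gap rests on the exon lengths. Among the S18 family, Mrps18a had 21.9 ± 1.79 TPM, Mrps18b 19.6 ± 2.21 TPM and Mrps18c 10.8 ± 1.39 TPM (SD, n = 9). Mrps18c was below the other two beyond their SD. Mrps36 stood at 30.2 ± 3.06 TPM, close to the median of the family.

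The 77 genes were spread over 17 chromosomes, with 11 on chromosome 11 and 8 on chromosome 17. For 18 of them another protein-coding gene starts within 1000 bases on the opposite strand, so that both may share a promoter. In 84Q against 15Q the median difference was 0.16 (log2) over these 18 genes, with 17 above 0, and 0.09 over their 18 neighbours, with 15 above 0. Mrps12 shares such a start region with Sars2, the mitochondrial seryl-tRNA synthetase, 172 bases away, and the log2 fold changes of the pair were 0.17 and 0.16. For Mrpl49 and Fau, the latter a gene of the cytosolic ribosome, they were 0.15 and 0.39, and Fau passed the adjusted p (0.0489) as the only one of the 18 neighbours. These pairs were chosen after their values were seen.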

How the data were processed

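Cerebellar RNA of 9 mice went into stranded paired-end libraries. Per the labels, the authors used Trimmomatic 0.36 for trimming, HISAT2 2.2.0 for alignment to GRCm38.p6 and featureCounts for counting. The deposited values are unnormalized counts per gene for 37816 genes. The annotation and the strand setting of the counting are not given in the sources used here, so reads of overlapping genes may be shared. Groups came from the sample labels. Replicates are separate mice.

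A quasi-likelihood model was fitted to all 9 libraries after filterByExpr and TMM scaling (edgeR 4.0.16 under R 4.3.3), with Benjamini-Hochberg adjustment over 19353 genes. Tests are two-sided, and standard errors derive from the F statistic. The steps were tested on simulated counts. CPM used TMM-scaled totals, log2 CPM a prior count of 2, and TPM the union of exons in GENCODE vM21, which had a position for 37681 genes. Depth sets the precision: 3 counts equal 0.0515 to 0.172 CPM. Alternatives were DESeq2 1.42.0, its size factors, no filter, other thresholds, 2 groups only, robust shrinkage, Xist as covariate, a replicate block and leaving out each mouse. The genes, lists and rules were chosen with earlier results of these data known. Members were named if called, among the 6 smallest p of a comparison, among the 5 highest or lowest TPM, or for a known role, and of each other list the called genes and up to 3 with the smallest p. Genes named after their values were seen are marked.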

Additional observations from a re-analysis of the deposited data

How the results depend on the processing

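In 84Q against 15Q 1 of the 77 genes (Mrpl34) was called, against 2.14% of all genes. With an adjusted p under 0.05, with Xist as covariate (1.42% of all genes) or with the length and GC trend removed (1.79%, added after seeing the data) 0 were called. Without the fold threshold 2 passed (4.8%). Leaving out single mice gave 0 to 2 calls (0.932% to 2.76% of all genes), with Mrps34 the second, at a log2 fold change of 0.62 without 15Q mouse 1. The median log2 fold change of the 77 ran from 0.075 (without 84Q mouse 3) to 0.17 (without 84Q mouse 2) there, from 0.08 to 0.14 in 84Q+IGF-1 against 15Q, and from −0.06 to 0.04 in 84Q+IGF-1 against 84Q, where its sign is not fixed. The last 2 comparisons had 0 calls in every setting. For both 84Q groups together, 6 genes passed without the fold threshold (9.75% of all genes). Leaving out single mice gave 0 to 1 calls there (1.39% to 4.47% of all genes). Mrpl34 in 84Q against 15Q ranged from 0.46 to 0.70 when single mice were left out. Of 810 values of single genes under alternatives, 793 kept their direction and their side of the threshold, and 9 changed sign, all in 84Q against 15Q. With Xist as covariate, Mrps2 had 0.010 and Mrps30 −0.0013. Leaving out single mice, Mrps2 ran from −0.039 to 0.058, Mrps30 from −0.041 to 0.037, Mrpl11 from −0.015 to 0.16 and Mrps18c from −0.11 to 0.20. Of 45 named single-gene differences, 22 moved by over 1.5 times without some 1 mouse and 18 under another setting. The cause of these changes was not tested.

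Same-numbered mice did not deviate together (r from −0.31 to 0.08), beside −0.24 to 0.29 for mice with different numbers. With 3 mice per group these values cannot exclude a pairing, and the labels give none. With the replicate block, 0 of the 77 genes were called in 84Q against 15Q, beside only 1.25% of all genes in that fit. The median log2 fold change of the 77 was 0.13 there, and Mrpl34 lay at 0.59. The other comparisons had 0 calls among the 77 too. The share of all genes was 1.4% for treated mice set beside 15Q, 0% beside 84Q and 2.35% for both 84Q groups pooled.

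The summed level in CPM on unscaled totals was 1479, 1600 and 1581 in 15Q, 84Q and 84Q+IGF-1, and in TPM 2395, 2565 and 2586. The subunit ratio was 0.515, 0.508 and 0.519 from CPM and 0.479, 0.474 and 0.480 with the S18 family placed by name. Totals without genes of mitochondrial DNA were not run, since no row of these genes was used here. Single genes had a median standard error of 0.10 in log2, and the smallest difference past the adjusted p in 84Q against 15Q among them was 0.30 (Mrpl40).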
